A study of Mus musculus with 4 samples.

Results

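The genes that build caveolae were examined in MC38 cells, a colon carcinoma line of the mouse, by RNA sequencing of 2 libraries labelled Arid5a knockout (KO) and 2 labelled wild type (WT). Arid5a belongs to the ARID family of DNA-binding proteins and its product also binds mRNA. The labels name no treatment, no time point and no further allele, and do not say whether the knockout cells are a single clone or whether libraries of a group came from separate cultures. All p-values below therefore measure only the spread between these libraries, which may be technical. The 7 genes are the caveolins Cav1 and Cav2, the cavins Ptrf (cavin 1), Sdpr (cavin 2) and Prkcdbp (cavin 3), and the neck proteins Ehd2 and Pacsin2. They were chosen by name from the 24346 gene symbols of the deposited tables, with their FPKM values in all 4 libraries and the contrast of KO with WT already known. FPKM is the number of fragments divided by transcript length and by library depth, so levels of different genes can be set side by side. Because the contrast was known, the differences of these 7 genes between the groups are given as a description, with no test.

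Caveolae are small flask-shaped pits of the plasma membrane. Caveolins sit in the inner leaflet of the pit as hairpin proteins, cavins form a coat around it on the cytosolic side, and ATPases and curvature-sensing proteins gather at its neck. The pits flatten when the membrane is stretched, and they take part in lipid handling and in signalling at the cell surface. In tumour cells caveolin 1 has been linked both to restraint of growth and to invasion, depending on the tumour.

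Several facts of the libraries bear on every value below. Arid5a itself was at 2.16 and 1.77 FPKM in the KO-labelled libraries, against 0.225 and 0.124 FPKM in those labelled WT, so the targeted gene runs against the labels. The labels do not say how the gene was altered, and a level over the whole gene does not check an edit that leaves the transcript in place. Directions below follow the labels as deposited. About 10300000 and 11400000 fragments lay behind the KO values and 15400000 and 11800000 behind the WT values, as estimated from low FPKM. Of 12 epithelial markers none reached a mean of 1 FPKM, and Epcam, Cdx1, Cdx2 and Cldn7 were listed at 0 in every library, although the labels call the line a model of colorectal cancer. Other cell types rich in caveolae were sparsely marked. Only Egfl7 of 10 endothelial markers, Smtn of 8 smooth muscle markers and none of 8 adipocyte markers reached a mean of 1 FPKM over the 4 libraries, with Kdr, Tie1, Cldn5, Adipoq, Lep and Myh11 listed at 0 throughout. The summed level of the endothelial list was 14.1 and 13.5 FPKM in libraries labelled KO, against 15.4 and 15.0 FPKM in those labelled WT. Smooth muscle markers summed to 37.8 and 36.9 FPKM (KO) against 35.2 and 33.1 FPKM (WT), and adipocyte markers to 1.03 and 1.18 FPKM (KO) against 0.680 and 1.34 FPKM (WT). Fibroblast markers were present, with 6 of 10 at a mean above 1 FPKM (Pdgfra, Pdgfrb, Col1a1, Col3a1, Dcn and Vim), and summed to 1180 and 1190 FPKM in libraries labelled KO, against 1410 and 1380 FPKM in those labelled WT. Nearly all of that sum was Vim, with means of 1166 FPKM (KO) and 1355 FPKM (WT). The collagen gene Col1a1 averaged 2.05 FPKM (KO) against 0.260 FPKM (WT), while Col3a1 averaged 6.82 FPKM (KO) against 27.9 FPKM (WT) and Dcn 0.803 FPKM (KO) against 4.83 FPKM (WT). Leukocyte markers, of which Cd68 and S100a8 were the only 2 of 11 to reach a mean of 1 FPKM over the 4 libraries, summed to 2.71 and 1.94 FPKM (KO) against 8.81 and 11.7 FPKM (WT). The part of these differences in the values of the caveola genes was not tested.

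Promoters of 4 of the genes are shown: the adjacent caveolins, Ptrf as the main coat gene and Sdpr as the gene with the largest difference. Of the 7 genes, 6 matched an entry in the RefSeq promoter table (GRCm38.p6), which holds 250 bases before and 50 after the start site. Capitals mark every match, on either strand, to one of 6 motifs. The motif of Sp-type factors known as the GC box was searched as GGGCGG. The box that positions the basal machinery was searched as TATAAA. The box bound by nuclear factor Y was searched as CCAAT. The motif of the TEAD factors was searched as GGAATG, and that of the AP-1 factors as TGANTCA. The CArG box of serum response factor was searched as well. The sequences lie at chr1:51288876-51289175 (plus strand, Sdpr), chr6:17306085-17306384 (plus strand, Cav1), chr6:17280935-17281234 (plus strand, Cav2) and chr11:100970568-100970867 (minus strand, Ptrf), and run 5′ to 3′ along the gene. For Ptrf the RefSeq start site used is 100970617, whereas the GENCODE M21 gene begins further upstream, at 100970887. The whole Ptrf window therefore lies inside that annotated gene, and its composition and motifs describe the RefSeq start site only.
Sdpr: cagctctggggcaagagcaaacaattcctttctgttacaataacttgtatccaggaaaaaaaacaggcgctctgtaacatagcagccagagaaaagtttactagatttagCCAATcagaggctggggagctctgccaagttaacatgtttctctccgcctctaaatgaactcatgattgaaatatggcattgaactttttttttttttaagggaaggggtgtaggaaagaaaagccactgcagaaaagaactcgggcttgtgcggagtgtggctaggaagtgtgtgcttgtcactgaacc
Cav1: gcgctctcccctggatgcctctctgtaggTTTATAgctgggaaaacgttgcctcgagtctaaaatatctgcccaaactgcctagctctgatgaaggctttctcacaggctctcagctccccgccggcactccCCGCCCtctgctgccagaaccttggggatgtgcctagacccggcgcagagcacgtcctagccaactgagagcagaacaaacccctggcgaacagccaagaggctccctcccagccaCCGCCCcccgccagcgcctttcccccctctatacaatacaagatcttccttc
Cav2: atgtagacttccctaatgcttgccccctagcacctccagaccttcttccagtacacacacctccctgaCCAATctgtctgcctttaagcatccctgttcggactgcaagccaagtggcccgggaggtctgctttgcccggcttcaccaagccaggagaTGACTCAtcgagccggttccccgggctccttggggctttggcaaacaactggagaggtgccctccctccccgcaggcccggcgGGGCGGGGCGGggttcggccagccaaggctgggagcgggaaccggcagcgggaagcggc
Ptrf: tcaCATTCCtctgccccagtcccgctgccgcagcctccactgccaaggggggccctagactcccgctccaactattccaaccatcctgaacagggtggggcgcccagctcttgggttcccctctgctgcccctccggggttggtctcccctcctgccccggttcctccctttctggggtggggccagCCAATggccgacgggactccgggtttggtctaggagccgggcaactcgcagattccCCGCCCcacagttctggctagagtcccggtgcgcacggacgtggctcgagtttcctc
The Sdpr promoter differed in composition from those of the other 5 matched genes. Its GC content was 43.3%, against 59.3% for Cav1, 64.3% for Cav2, 66.7% for Ptrf, 62.0% for Ehd2 and 65.3% for Pacsin2. The median of all 27025 promoters, with each gene taken at its start site farthest upstream, was 52.7%. Sdpr stood at the 18.0th percentile of GC content, and the other 5 from the 69.1st (Cav1) to the 85.4th (Ptrf). The Sdpr promoter held no GC box, a motif found at least once in the promoters of the other 5 matched genes and in 35.9% of all promoters. A CCAAT box was found in Sdpr, Cav2, Ptrf, Ehd2 and Pacsin2 but not in Cav1, against 38.0% of all promoters. Cav1 alone of the 6 held TATAAA (14.2% of all promoters), Cav2 alone the AP-1 motif (7.92%) and Ptrf alone the TEAD motif (14.7%). The TATAAA of Cav1 lay on the strand opposite to the gene, from -221 relative to the start site. The CArG box (1.59% of all promoters) was in none of the 6 windows. The 2 GC boxes of Cav2 overlap. A match is only a run of letters, and a missing one says nothing of binding.

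Cav1, the main structural protein of caveolae in cells other than muscle, was lower in the KO-labelled libraries. Its levels of 114 and 110 FPKM (KO) stood against 203 and 197 FPKM in the WT-labelled libraries. The groups did not overlap, and the gap between replicates was 3.89% (KO) and 3.12% (WT). The KO mean was 0.561 of the WT mean, a change of -0.83 ± 0.033 (SE) on the log2(FPKM + 1) scale used for all log2 changes here. Every SE is limma's moderated SE, in which a gene's spread is drawn towards that of genes at similar levels. It is therefore not the spread of the 4 libraries alone. Cav1 lies on chromosome 6 from 17306335 to 17341452, plus strand (GRCm38, GENCODE M21). In bulk RNA, fewer cells that express a gene and less RNA per cell cannot be told apart. Cav2, the paralog that joins Cav1 in mixed oligomers and depends on it to reach the cell surface, was at 69.2 and 69.4 FPKM (KO) against 89.8 and 88.9 FPKM (WT). Its log2 change was -0.36 ± 0.029 (SE), a smaller difference than that of Cav1, and the groups were again apart. Cav2 lies 17.2 kb before Cav1, from 17281185 to 17289115 on the same strand. The annotation has an antisense transcript, Gm15581, running across both caveolin genes. The deposited tables hold no such symbol, and the strand setting of the counting is not given in the sources used here, so its reads cannot be told apart from theirs.

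**Figure D1:**
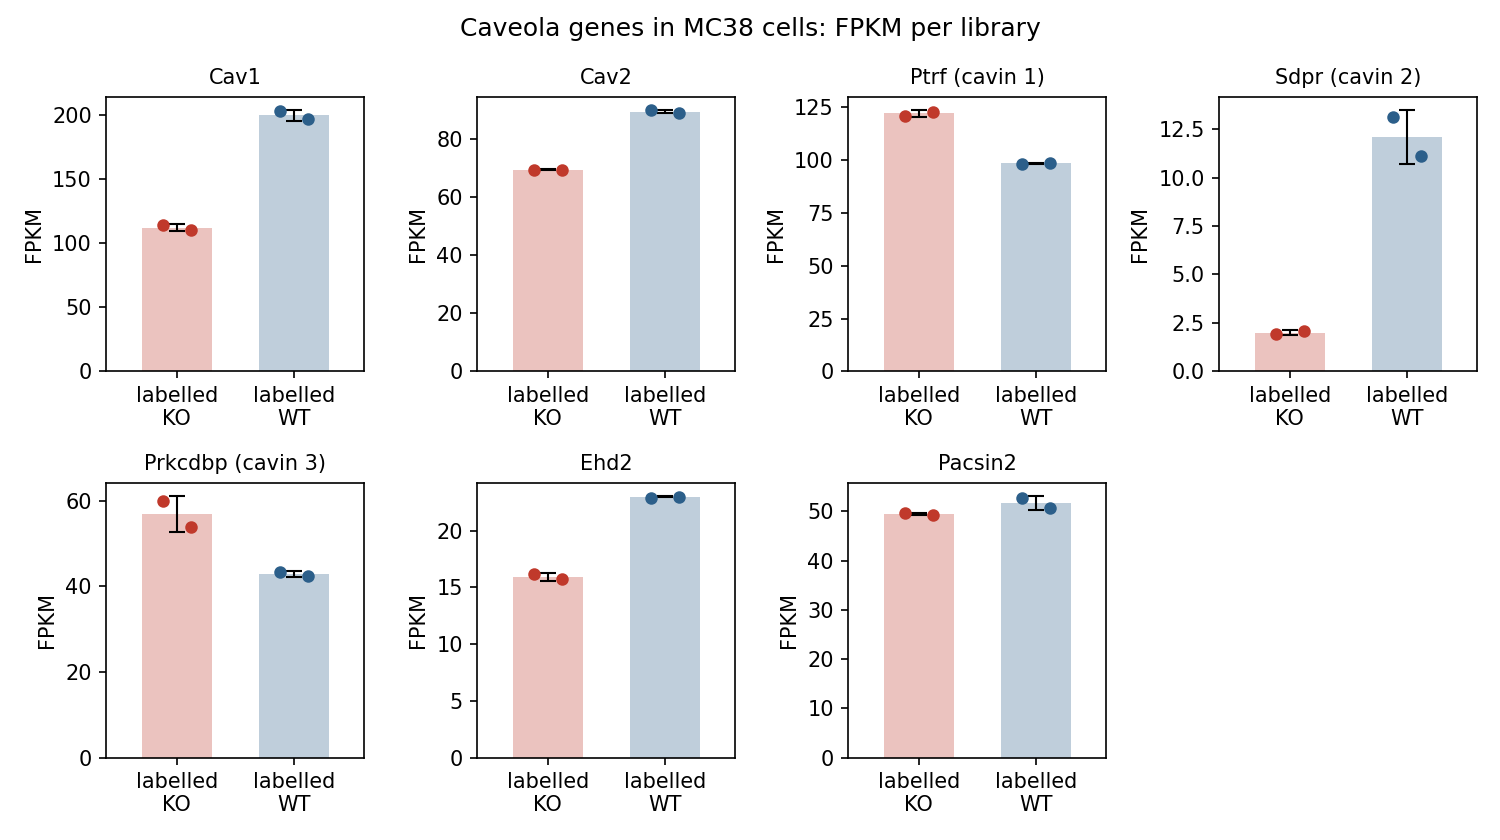
FPKM of each of the 7 caveola genes in libraries labelled KO (left) and WT (right), each panel on its own linear axis from 0. Points are libraries, bars are means and error bars are SD (n = 2). Cav1, Cav2, Sdpr and Ehd2 sit lower in the KO-labelled libraries, Ptrf and Prkcdbp sit higher, and Pacsin2 averages 49.5 (KO) against 51.7 FPKM (WT).

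Among the cavins, Sdpr was lower and the other two were higher in the KO-labelled libraries. Sdpr, cavin 2, binds phosphatidylserine and promotes membrane curvature. It was at 1.91 and 2.09 FPKM in the KO-labelled libraries, against 13.1 and 11.1 FPKM in those labelled WT, so its KO mean was 0.165 of its WT mean. The log2 change was -2.12 ± 0.096 (SE), the 39th lowest of the 10827 genes that averaged 1 FPKM or more and were tested. With 1 annotated transcript of 3055 bases, these levels correspond to about 54.9 and 67.6 fragments (KO) and 572 and 373 fragments (WT). The lowest of these carries a counting error of 13.5%, which covers the sampling of fragments alone and no variation between cultures or libraries. The replicates differed by 9.39% (KO) and 17.8% (WT). Because the KO level is low, the added 1 shrinks this change, and with 0.1 added it was -2.54. Sdpr lies on chromosome 1 from 51289126 to 51302960, plus strand.

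Ptrf, cavin 1, the coat protein without which caveolae do not form, was higher in the KO-labelled libraries, at 121 and 123 FPKM against 98.4 and 98.6 FPKM in those labelled WT. The log2 change was 0.31 ± 0.028 (SE), with no overlap (chromosome 11, 100956733 to 100970887, minus strand). Prkcdbp, cavin 3, which binds protein kinase C delta, was at 59.9 and 53.9 FPKM (KO) against 43.4 and 42.4 FPKM (WT). Its log2 change was 0.40 ± 0.056 (SE), and its KO replicates lay further apart, relative to their mean, than the KO replicates of any other of the 7 genes (chromosome 7, 105480083 to 105482300, minus strand). Without KO replicate 1 the change of Prkcdbp was 0.32, and without KO replicate 2 it was 0.47.

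The neck proteins differed from each other. Ehd2, an ATPase that rings the neck and holds caveolae at the surface, was lower at 16.2 and 15.7 FPKM (KO) against 22.9 and 23.0 FPKM (WT), a log2 change of -0.50 ± 0.043 (SE; chromosome 7, 15946958 to 15967567, minus strand). Pacsin2, an F-BAR protein that shapes the neck, was at 49.6 and 49.3 FPKM (KO) against 52.8 and 50.7 FPKM (WT). Its log2 change of -0.06 ± 0.035 (SE) was the smallest of the 7, although the groups did not overlap (chromosome 15, 83375607 to 83464606, minus strand). For all 7 genes both libraries of one group lay above both of the other, as they did for 77.5% of all genes tested, and since the genes were chosen with these values known, nothing is read from that count. The median log2 change of the 7 was -0.36, beside 0.01 over all 10827 genes. That median is the value of Cav2, and for the same reason nothing is read from it. All 7 passed the filter of 1 FPKM.

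The order of the levels differed between the groups. In both libraries labelled KO it ran Ptrf, Cav1, Cav2, Prkcdbp, Pacsin2, Ehd2 and Sdpr from highest to lowest, against Cav1, Ptrf, Cav2, Pacsin2, Prkcdbp, Ehd2 and Sdpr in both libraries labelled WT. Replicate values of neighbours in the order did not overlap in either group. In the KO order, the lowest Ptrf value (121 FPKM) was near the highest of Cav1 (114 FPKM). Prkcdbp and Pacsin2 were separated there by less than the replicates of Prkcdbp were from each other (53.9 FPKM for the lower Prkcdbp value and 49.6 FPKM for the higher Pacsin2 value), so their order does not exceed that spread. In the WT order the closest were Pacsin2 (50.7 FPKM at the lowest) and Prkcdbp (43.4 FPKM at the highest). Against all genes tested, mean levels ran from the 29.2nd percentile for Sdpr to the 94.6th for Cav1.

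Summed over the family, caveolin levels were lower and cavin levels higher in the KO-labelled libraries. Cav1 and Cav2 together made 183 and 179 FPKM in the KO-labelled libraries, against 293 and 285 FPKM in those labelled WT. The 3 cavins together made 183 and 179 FPKM (KO) against 155 and 152 FPKM (WT). The sum of cavins over the sum of caveolins was thus 0.999 ± 0.003 (SD, n = 2) in libraries labelled KO and 0.531 ± 0.002 (SD, n = 2) in those labelled WT. The family sums and this ratio were not planned beforehand. They hold the same Ptrf and Cav1 values as the ratio of Ptrf to Cav1 below. Within the cavins, Sdpr gave 1.05% and 1.16% of the sum (KO) against 8.45% and 7.31% (WT). Cav2 gave 37.7% and 38.7% of the caveolin sum (KO) against 30.7% and 31.1% (WT).

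Ratios within a library do not depend on how libraries are scaled to each other. Ptrf to Cav1, a ratio added after its values were seen, was 1.06 and 1.12 (KO) against 0.485 and 0.501 (WT). Pacsin2 to Cav1 was 0.434 and 0.449 (KO) against 0.260 and 0.258 (WT), and Ehd2 to Cav1 was 0.142 and 0.143 (KO) against 0.113 and 0.117 (WT). In these ratios the KO-labelled libraries were higher and the groups were apart. Prkcdbp to Ptrf was the one ratio of 6 whose groups overlapped, at 0.495 and 0.437 (KO) against 0.442 and 0.431 (WT). Sdpr to Ptrf was 0.0158 and 0.0169 (KO) against 0.133 and 0.113 (WT).

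**Figure D2:**
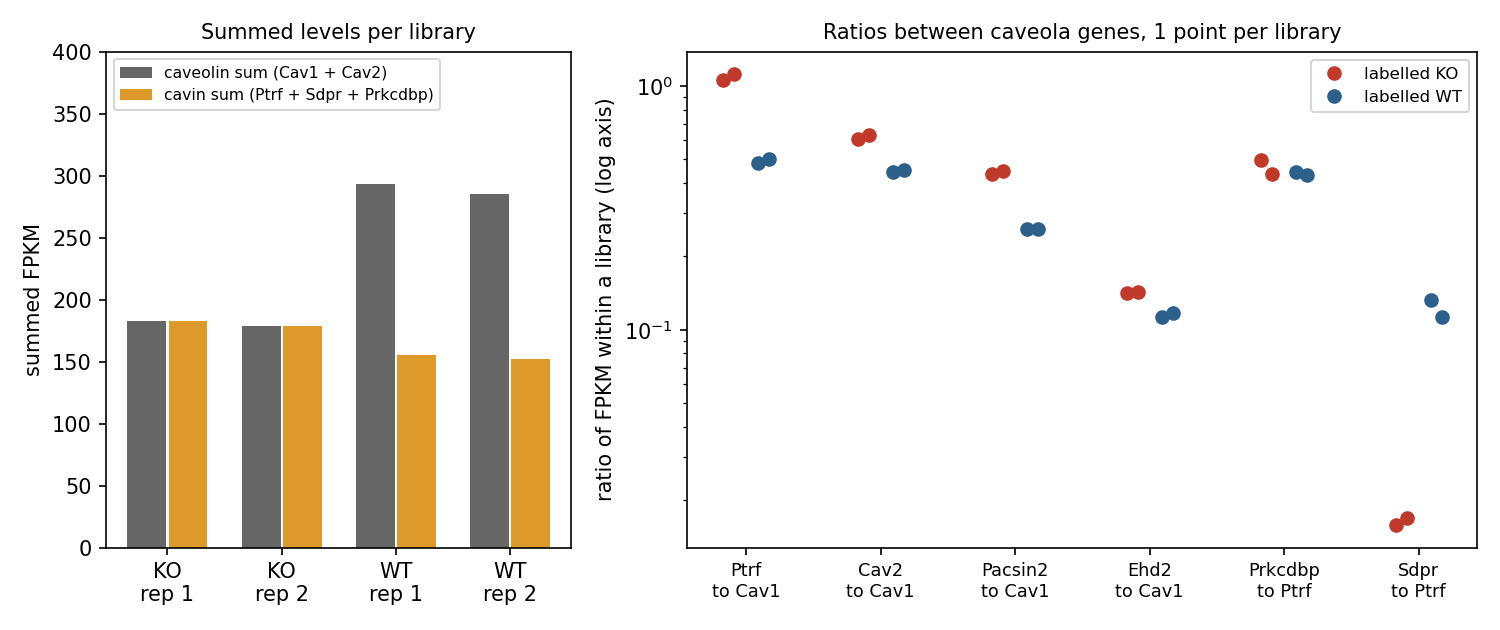
Left, summed FPKM of the caveolins (grey) and the cavins (orange) in each library. Right, ratios of FPKM between caveola genes within each library, on a log axis, with 1 point per library (KO left, WT right in each pair). The sums are nearly equal in both libraries labelled KO, at 183 and 179 FPKM for each family, while in libraries labelled WT the caveolins are higher. The points of Prkcdbp to Ptrf overlap between groups and those of the other 5 ratios do not.

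Genes with profiles most like those of Sdpr and Cav1 over the 4 libraries were found by Euclidean distance between centred log2 values, among genes averaging 5 FPKM or more. Nearest to Sdpr were Ecm1 (distance 0.139), Col3a1 (0.253), Apcdd1 (0.254), Cdh26 (0.273) and Gpc1 (0.288). Ecm1, an extracellular matrix protein, was at 1.72 and 1.71 FPKM (KO) against 10.7 and 10.3 FPKM (WT). Nearest to Cav1 were Tmem150a (0.028), Isg15 (0.041), Ptges (0.053), Oas1a (0.059) and Ifitm1 (0.064). Tmem150a, a membrane protein gene also on chromosome 6, was at 4.85 and 4.57 FPKM (KO) against 9.29 and 9.19 FPKM (WT). With 4 libraries in 2 groups, this distance is set largely by the difference between the groups.

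The nearest tested protein-coding genes on the chromosome, 2 on each side, gave 24 distinct neighbours, of which 13 were called by limma (adjusted p under 0.05 after Benjamini-Hochberg correction). That is 54.2% of them, against 47.6% of all genes tested. Of the 13, 3 were higher and 10 lower in the KO-labelled libraries, where 24.4% of all genes tested were called higher and 23.3% lower. Around the caveolins, Tes, a focal adhesion protein, was lower at 83.7 and 84.2 FPKM (KO) against 107 and 113 FPKM (WT), a log2 change of -0.38 ± 0.034 (SE, with limma's adjusted p = 0.00108). Met, the receptor of hepatocyte growth factor, changed by -0.16 (limma, adjusted p = 0.0473), and Capza2, an actin capping subunit, by -0.14 (0.0202). Tes, Cav2, Cav1, Met and Capza2 follow each other among the tested protein-coding genes of chromosome 6, and all were lower in the KO-labelled libraries, while Mdfic beyond Tes was not called (-0.01 ± 0.090). The median over the 518 tested genes of this chromosome was -0.05. The call of Met did not hold in any fit without 1 library (limma, adjusted p from 0.0988 to 0.171), and that of Capza2 without WT replicate 2 (0.0897), KO replicate 1 (0.0745) or KO replicate 2 (0.0680).

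On chromosome 11, where the median over 915 tested genes was -0.10, Ptrf was higher while 3 of the 4 genes beside it were lower. Stat3, a transcription factor activated by cytokines, lies 17.2 kb from it and was at 19.5 and 19.3 FPKM (KO) against 27.0 and 28.9 FPKM (WT), a log2 change of -0.50 ± 0.048 (SE, with limma's adjusted p = 0.00132). Naglu, a lysosomal enzyme gene 99.1 kb away, was at 4.15 and 4.05 FPKM (KO) against 12.8 and 13.6 FPKM (WT), a change of -1.48 ± 0.063 (SE, with limma's adjusted p = 0.000168). Stat5a (-0.29) and the proton pump gene Atp6v0a1 (0.21) were called as well. Stat5a was not called without WT replicate 2 (limma, adjusted p = 0.126) or KO replicate 1 (0.0970), nor Atp6v0a1 without WT replicate 2 (0.137), KO replicate 1 (0.101) or KO replicate 2 (0.0782). Around Sdpr the nearest tested gene below lies 4396 kb away, and Slc39a10 (-0.13), Wdr75 (-0.06) and Nabp1 (0.04) were not called. Around Prkcdbp, Smpd1 (-0.47), 72.1 kb away, and Trim30d (-0.74), 972 kb away, were lower. Fam160a2 (-0.06) and Apbb1 (-0.02), 80.0 and 76.2 kb away, were not called. Beside Ehd2, Gltscr2 was lower (-0.26) and Sepw1, a selenoprotein, higher (0.52), while Gltscr1 (0.05) and Napa (0.06) were not called. Of the neighbours of Pacsin2 only Cyb5r3 was called (-0.14), and not without WT replicate 2 (limma, adjusted p = 0.114), KO replicate 1 (0.0919) or KO replicate 2 (0.0674). The number of neighbours called fell to 7 without WT replicate 2 and to 7 without KO replicate 1.

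**Figure D3:**
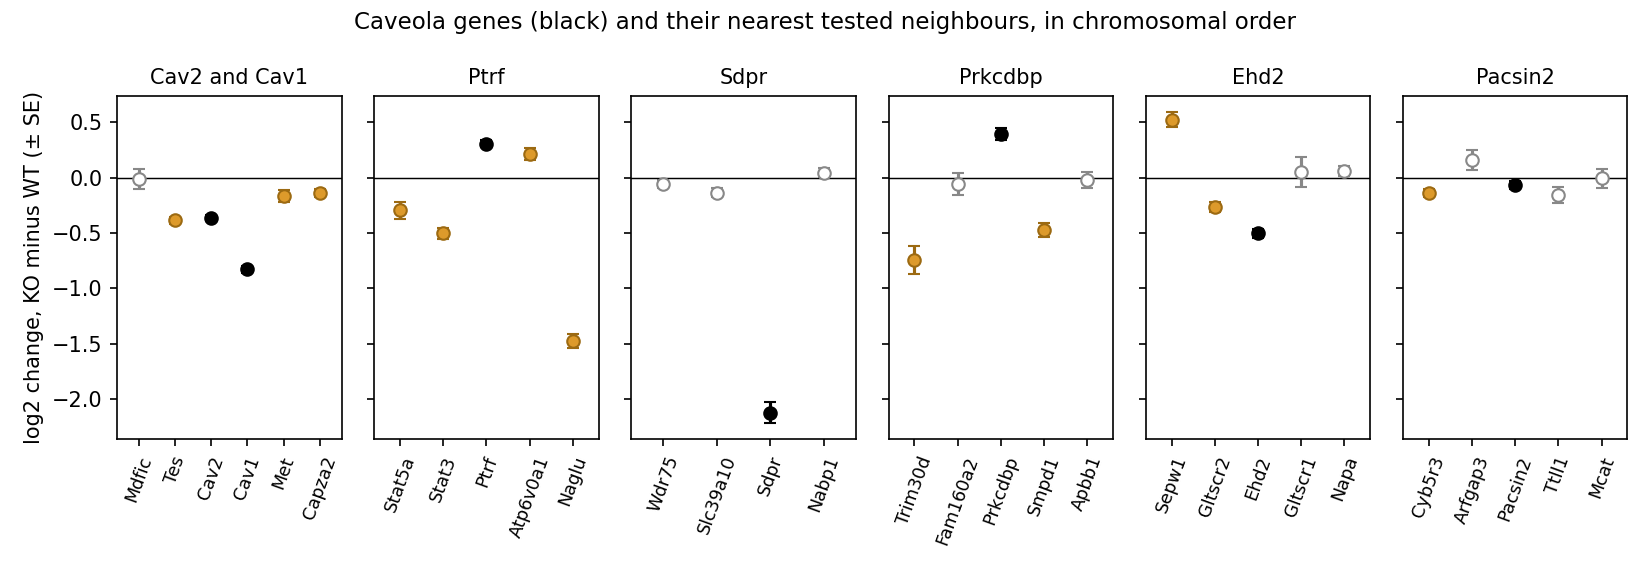
Log2 change of FPKM + 1 (KO minus WT) of the caveola genes (black, no test) and of the neighbouring tested protein-coding genes shown. Genes are in chromosomal order, spaced evenly, and error bars are limma's moderated SE. Filled orange points were called by limma and open points were not. The 5 genes from Tes to Capza2 all lie under 0, while Ptrf lies above 0 next to Stat3 at -0.50. Sdpr lies at -2.12 between Slc39a10 at -0.13 and Nabp1 at 0.04, neither of them called.

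Genes of 7 further lists were set beside the 7 caveola genes, with 81 of their 105 genes above the filter. By limma, 31 were called higher and 12 lower in the KO-labelled libraries, which is 53.1% of those tested, beside 47.6% of all genes tested (24.4% higher and 23.3% lower). The median log2 change was 0.12. With each library rescaled to the same FPKM sum, 18 were higher and 17 lower, and the calls over all genes were 1937 higher and 3261 lower, against 2641 and 2518 as deposited. Leaving out WT replicate 1 left 23 calls in the lists and 3325 over all genes, WT replicate 2 left 27 and 3216, and KO replicate 2 left 28 in the lists.

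Of 7 paralogs of the caveola genes, 4 were under the filter. Cav3 and Ehd3 were listed at 0 in every library, and Murc (cavin 4) and Pacsin1 stayed under 0.3 FPKM. Of the 3 tested, Pacsin3, an F-BAR paralog of Pacsin2, rose to 22.2 and 18.8 FPKM (KO), against 12.7 and 12.7 FPKM (WT), by 0.64 ± 0.082 (SE, with limma's adjusted p = 0.00297). Ehd1, at 69.6 and 69.0 FPKM (KO) against 70.9 and 71.4 FPKM (WT), and Ehd4 were not called. With libraries rescaled to the same sum, 1 of the 3 was called higher and 1 lower.

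Of 11 tested partners and turnover factors, 6 rose and 1 fell, with a median of 0.14. That is 63.6% called, beside 47.6% of all genes. Src, the kinase that phosphorylates caveolin 1, was at 42.1 and 39.3 FPKM (KO) against 27.8 and 27.3 FPKM (WT), a rise of 0.54 ± 0.046 (SE, with limma's adjusted p = 0.000933). The related kinase Fyn rose by 0.40, Abl1 by 0.26 and Vcp, an ATPase that handles ubiquitylated caveolin, by 0.26. Abl2, a kinase paralog of Abl1, was the one that fell (-0.17; limma, adjusted p = 0.0474), and not in any fit that left out a library (adjusted p from 0.0806 to 0.179). Abl1 was not called without WT replicate 1 (limma, adjusted p = 0.0750), WT replicate 2 (0.0866) or KO replicate 2 (0.0709), nor Fyn without WT replicate 1 (0.0523). Without WT replicate 1 the list had 2 calls higher, without WT replicate 2 or KO replicate 2 it had 3. Dnm2, the dynamin that severs caveolae, and Flna, filamin A, which ties them to actin, were not called, at 27.1 and 27.8 FPKM (KO) against 29.0 and 29.2 FPKM (WT) for Dnm2 and 92.0 and 91.9 FPKM (KO) against 92.5 and 92.4 FPKM (WT) for Flna.

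Among receptors and signalling proteins found in caveolae, 6 of 18 tested rose and 1 fell, with a median of 0.14. The share called, 38.9%, was below the 47.6% of all genes. Hras, a lipid-anchored GTPase, rose by 0.42 ± 0.056 (SE, with limma's adjusted p = 0.00335), the G protein subunit Gna11 by 0.36, the receptor Bmpr1a by 0.31 and Gnaq, a paralog of Gna11, by 0.24. The calcium pump Atp2b1 was the one that fell (-0.20), and not without WT replicate 1 (limma, adjusted p = 0.0666) or WT replicate 2 (0.0664). Gnaq was not called in any fit without 1 library (adjusted p from 0.0629 to 0.154). The list had 3 calls higher without WT replicate 1, and 3 with libraries rescaled to the same sum. Nos3, Cd36, Slc2a4 and Plvap, typical of caveolae in endothelium, fat and muscle, were under the filter.

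Genes for the lipids of the caveolar membrane were called in both directions, 3 higher and 5 lower of 12 tested, with a median of -0.06. This is 66.7% called, beside 47.6% of all genes (24.4% higher and 23.3% lower). Ptdss1, a phosphatidylserine synthase, was at 30.7 and 32.6 FPKM (KO) against 45.7 and 48.4 FPKM (WT), a fall of 0.56 on the log2 scale (limma, adjusted p = 0.00104), while its paralog Ptdss2 rose by 0.43. Sptlc1, of the enzyme that starts sphingolipid synthesis, fell by 0.51 and its partner subunit Sptlc2 rose by 0.17. Smpd1, acid sphingomyelinase and the neighbour of Prkcdbp, fell by 0.47, Npc1, which exports cholesterol from lysosomes, by 0.34 and the lipid kinase Pip5k1c by 0.30. The sphingomyelin synthase Sgms2 rose by 0.31. Sptlc2 was not called in any fit without 1 library (limma, adjusted p from 0.0520 to 0.121), Sgms2 without WT replicate 2 (0.0880) or KO replicate 1 (0.0692), Ptdss2 without KO replicate 1 (0.0602) or KO replicate 2 (0.0543), and Pip5k1c without WT replicate 1 (0.0555). No gene of the list was called higher without KO replicate 1, and 1 was without WT replicate 2 or KO replicate 2.

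Raft scaffolds and the clathrin coat were called in both directions. Of 5 tested raft scaffolds 40.0% were called, beside 47.6% of all genes. Stomatin (Stom) rose by 0.31 and the prion protein gene Prnp fell by 0.24, at 735 and 718 FPKM (KO) against 877 and 836 FPKM (WT). Flot1, a flotillin, was not called, and Flot2 was at or near 0 in the tables. Of 17 tested genes of the clathrin coat and its adaptors, 8 rose and 3 fell, with a median of 0.10, which is 64.7% called beside 47.6% of all genes. With libraries rescaled to the same sum 3 rose and 5 fell. Ap2a2, an alpha subunit of the AP-2 adaptor, was at 47.3 and 48.8 FPKM (KO) against 20.9 and 21.9 FPKM (WT), a rise of 1.13 ± 0.043 (SE, with limma's adjusted p = 0.000137). Cltb, a clathrin light chain, fell by 0.62, the endophilin gene Sh3gl1 rose by 0.48 and the scaffold Itsn1 by 0.43. The adaptor genes Ap2a1 (-0.12) and Ap2b1 (-0.12) were not called in any fit without 1 library (limma, adjusted p from 0.0847 to 0.153 and from 0.0716 to 0.134). Over the fits that left out 1 library, 3 to 5 genes of the list were called higher and 1 lower, with 3 higher without WT replicate 1 or KO replicate 1, 4 without WT replicate 2 and 5 without KO replicate 2.

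Of 15 tested transcription factors that have been reported to act on caveola genes, 6 rose and 1 fell, with a median of 0.14. The share called, 46.7%, was near the 47.6% of all genes. Tead3 rose by 0.63 ± 0.112 (SE, with limma's adjusted p = 0.00839), Hif1a, of the hypoxia response, by 0.32, Tead1 by 0.32 and Srebf2, which controls cholesterol genes, by 0.26. Wwtr1, the TEAD coactivator TAZ, fell to 21.3 and 21.2 FPKM (KO), against 25.9 and 25.1 FPKM (WT), by 0.25 on the log2 scale. Srf, its coactivators Mkl1 and Mkl2, and Yap1 were not called. Pparg and Gata6 were listed at 0 in every library.

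**Figure D4:**
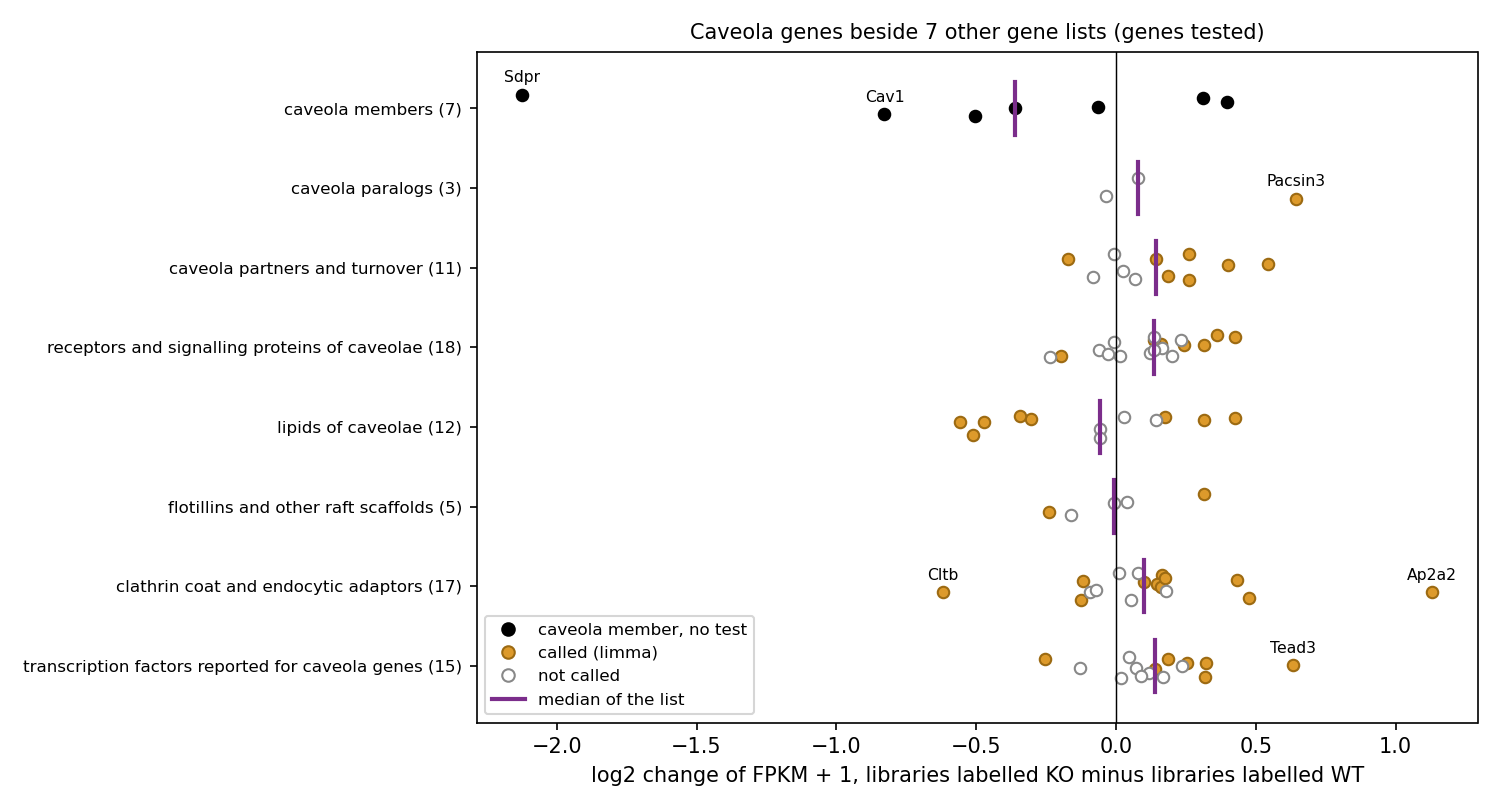
Log2 change of FPKM + 1 (KO minus WT) of the 7 caveola genes (black, no test) and of the tested genes of 7 other lists, with the number of genes in parentheses. Orange points were called by limma, open points were not, and purple bars are list medians. The median of the caveola genes is -0.36 and those of the other lists lie between -0.06 and 0.14, with Sdpr at -2.12 the lowest gene shown. The caveola genes were chosen with these values known, so nothing is read from their median.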

How the data were processed

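RNA from 2 MC38 libraries labelled KO and 2 labelled WT was sequenced from stranded TruSeq mRNA libraries, per the labels' protocols. The authors deposited 1 FPKM value per gene symbol and library. The submitters' processing notes list Cufflinks 2.2.1, SAMtools 0.1.19, Bowtie2 2.2.3, TopHat2 2.0.13 and the build mm10. Their settings, the annotation and the use of strand are not given in the sources used here. Abundant transcripts can shift all FPKM of a library.

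Values were transformed to log2(FPKM + 1) and genes averaging 1 FPKM or more were tested with limma 3.58.1 (R 4.3.3; lmFit, eBayes with a mean-variance trend, no block, two-sided, Benjamini-Hochberg over 10827 genes). A gene was called at an adjusted p under 0.05. The procedure was also run on simulated data with fewer and mostly larger changes than these data hold, which does not check the calls made here. SDs are over 2 libraries. Depth was estimated from low values of genes with 1 transcript in GENCODE M21 (GRCm38), as a line of 1/FPKM on length, and fragment numbers derived from it are approximate. Coordinates matched 23909 of 24346 symbols (98.2%), with older symbols matched through RefSeq synonyms. Python 3.11.15 was used for the rest.

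The 7 genes and the other lists were chosen with earlier results of these data known. Named genes were the 7 members, Arid5a, up to 4 called genes per list with the largest change, all called genes of a list and direction with 5 or fewer, called neighbours, and the 5 nearest profiles of Sdpr and of Cav1. One result for a neighbouring gene is not reported here, though the counts of neighbours include it. Genes named as not called or under the filter were added after their values were seen. Alternatives covered the pseudocount, the filter, scaling, a replicate block and leaving out each library.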

Additional observations from a re-analysis of the deposited data

How the results depend on the processing

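Each of the 7 caveola genes kept its direction in every alternative run. Over the fits that left out 1 library, log2 changes ran from -0.86 to -0.80 for Cav1, from -2.23 to -2.01 for Sdpr, from 0.30 to 0.32 for Ptrf and from -0.09 to -0.04 for Pacsin2. Rescaling each library to the same FPKM sum moved the median of the 7 genes to -0.43, and the median of all genes to -0.06. That scaling also cut the genes of the other lists called higher to 18, from 31. Over the fits that left out 1 library, 3216 to 3974 of all genes were called, 23 to 30 of the other lists (16 to 21 higher and 7 to 9 lower) and 7 to 11 of the chromosomal neighbours. A lone library was then taken to vary like the other group. With the replicate number as a block (replicate block), 4673 genes were called instead of 5159, with 36 of the other lists and 11 of the neighbours. Same-numbered libraries deviated together only weakly (r = 0.138 across genes, which are not independent replicates), and nothing in the labels says that the numbers pair them. Of the named genes with a test, Abl2, Sptlc2, Ap2a1 and Met lost their call under the block. None did with 0.1 FPKM as the pseudocount, nor any that was still tested at a filter of 5 FPKM. Tead3, Trim30d and Arid5a fell under that filter. With no filter Abl2, Gnaq, Met and Stat5a lost their call, and with libraries rescaled to the same sum Gnaq, Sptlc2 and Atp6v0a1 did. With 2 libraries in each group, an unreplicated culture or clone effect cannot be told apart from the labelled genotype, and depth limits Sdpr the most.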
